A study of Mus musculus with 12 samples.

Results

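The knockdown experiment compared zygotes injected with siRNA against Lsm1 (Lsm1_KD, 2 libraries) with zygotes injected with scramble siRNA (Ctrl, 2 libraries), which are 4 of the 12 libraries of the study and were taken by their labels. By their labels, all came from superovulated B6D2F1 females, 8 to 10 weeks of age and mated. The labels give zygote collection at 18 to 20 h after hCG, and the methods of the study give another age range. The other libraries are labelled as from zygotes given Lsm1 mRNA, with or without a FLAG tag, though the titles of those without a tag name IgG. The labels place the siRNA injection in zygotes. The knockdown scheme of the study injects oocytes at the germinal vesicle stage and matures and fertilizes them in vitro. Which of the schemes gave these libraries is not stated. Each library pools a few embryos, and nothing says that the libraries come from separate females or injection days, so that p-values measure only the spread between these libraries. Some Lsm1 RNA remained in the knockdown.

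LSM1 is the subunit that marks the cytoplasmic LSM ring, which binds the 3′ end of mRNAs that have lost most of their poly(A) tail and, with PAT1, promotes removal of the 5′ cap and decay from that end. The fully grown oocyte is nearly silent in transcription, and the zygote inherits its stored mRNA, so that RNA levels at this stage follow from storage and decay as well as from new synthesis. Total RNA levels cannot tell these apart. The siRNA is given here, written as DNA as in the oligonucleotide list of the study, because it defines the treated group. Its capitals mark bases 2 to 8 of the guide strand, the seed by which a guide can also pair with other RNAs, and the heptamer TAACTTA of the sense strand that is complementary to them.
Lsm1 siRNA, sense strand: gatcaatttgcTAACTTAg
Lsm1 siRNA, guide strand: cTAAGTTAgcaaattgatc

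The target of 19 bases lies in the coding sequence of Lsm1, from position 187 of a transcript of 2360 nt, and spans the junction of exons 2 and 3 of 4. On the plus strand of chromosome 8 (GRCm38.p6), 10 of its bases are at 25792216 to 25792225 and 9 at 25793677 to 25793685. No other transcript among 11134 tested genes with a sequence held the whole target. Lsm1 itself was at 63.6 and 71 CPM in Lsm1_KD and 143 and 147 CPM in Ctrl. Both knockdown libraries were below both control libraries, with a log2 fold change of -1.10 (SE 0.22, adjusted p = 0.0118).

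The knockdown libraries totalled 4636492 and 11095477 estimated counts, and the control libraries 13968315 and 7391089. Levels are given as CPM (counts scaled to a common total over the features tested), after TMM scaling, and differences as the log2 fold change of Lsm1_KD over Ctrl from the quasi-likelihood test of edgeR, with its standard error (SE) and a p adjusted by Benjamini-Hochberg over all 11335 genes and repeats tested. Precision is limited by depth and by the 2 libraries per group. At an adjusted p under 0.05 and a log2 fold change over 1 or under -1, 612 features were up (5.40% of those tested) and 312 were down (2.75%). The groups did not overlap in 6561 of the 11335 features tested. These included all 612 up and all 312 down, so that a lack of overlap adds nothing to a call. On TPM, tested by limma, which changes both unit and test, 370 were up and 613 down, and the median of all log2 fold changes moved from 0.0068 to -0.23. At the adjusted p alone, which is used for gene lists below, 731 were higher (6.45%) and 517 lower (4.56%). These are the background shares against which the lists are read, and levels relative to one another within a sample carry no absolute amount of RNA. Such shares over all features were not taken at an unadjusted p, by DESeq2 at the adjusted p alone, or without single libraries. List counts under those settings have no background here and cannot be read as an excess.

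Short transcripts were higher in the knockdown libraries. Among 358 genes whose most abundant transcript is under 750 nt, the median log2 fold change was 1.32, with 34.1% up and 0.279% down. It was 0.65 at 750 to 1000 nt (410 genes), 0.096 at 1000 to 2000 nt, -0.027 at 2000 to 3000 nt, -0.069 at 3000 to 5000 nt and -0.15 at 5000 nt and over (2103 genes, 2.52% up and 2.95% down). In the shortest class each of the 4 pairings of a knockdown with a control library gave a median between 0.99 and 1.32, while the replicates differed by 0.22 in Lsm1_KD and by -0.14 in Ctrl. Leaving out 112 ribosomal, respiratory and splicing genes by their symbols left 246 genes in that class with a median of 1.27, of which 31.7% were up. Genes under 1000 nt were 6.89% of the 11142 genes tested, 29.0% of those that were up and 2.90% of those that were down. Their share of all counts was 6.88% and 8.25% in the knockdown libraries and 4.35% and 4.01% in the controls. The part of library preparation in this trend was not tested. For each of the 31 programs and for many of the short genes, the value with a smooth trend on transcript length taken out of each library is therefore given as well. With that trend out, 441 features were up and 331 down.

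**Figure D1:**
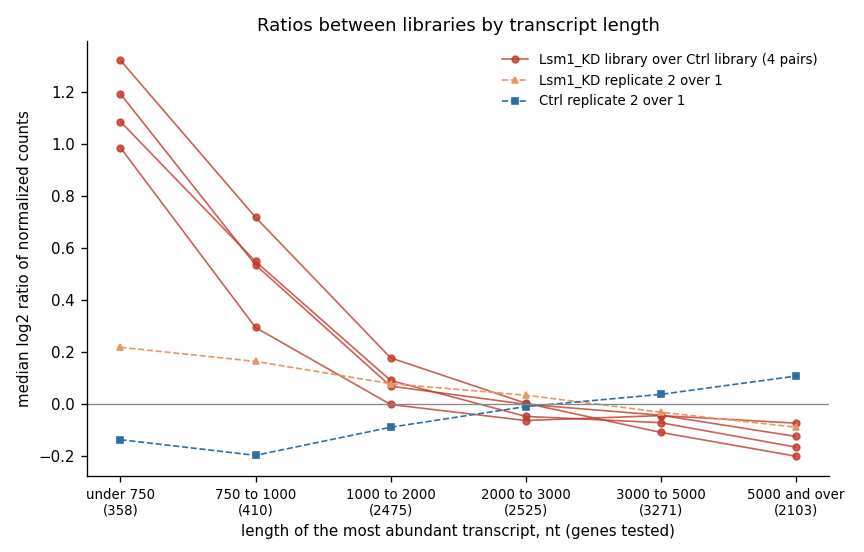
Median log2 ratio of normalized counts (y axis) by length of the most abundant transcript (x axis, nt, number of genes in parentheses). Red lines are the 4 pairings of a knockdown with a control library, and dashed lines compare replicates of a group. In genes under 750 nt the red medians lie between 0.99 and 1.32, outside the replicate values of 0.22 and -0.14.

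Genes of protein entry into the endoplasmic reticulum (ER) moved in both directions, and those of the ER stress response that passed were mostly lower. Of 48 tested genes of ER translocation and signal peptide processing, 8 were higher (16.7%) and 4 lower (8.33%), and their median log2 fold change was 0.11 (-0.14 with the length trend taken out). Sec62 (chromosome 3, 30792876 to 30821263), a translocon partner that serves the import of finished small proteins, was at 1001 and 1046 CPM in Lsm1_KD and 259 and 265 CPM in Ctrl. Its libraries were close within each group and far apart between groups, with a log2 fold change of 1.97 (SE 0.19, adjusted p = 0.001), and it passed in all 11 alternative settings. Sec61g, the small gamma subunit of the Sec61 channel, was at 46.7 and 52.7 CPM in Lsm1_KD and 13.2 and 9.64 CPM in Ctrl, a log2 fold change of 2.11 (SE 0.32, adjusted p = 0.00382), and 1.27 (adjusted p = 0.0258) with the length trend out. The pore subunit Sec61a1 went the other way, at 69 and 62.1 CPM in Lsm1_KD and 121 and 115 CPM in Ctrl and -0.85 (adjusted p = 0.0356), and passed in 6 of the 11 settings. Ssr1 of the translocon-associated TRAP complex rose by 1.49 (adjusted p = 0.00815), and Stt3b, a catalytic subunit of the oligosaccharyltransferase that adds N-glycans, changed by -1.15 (adjusted p = 0.00781). Of the other genes that were higher, Sec61b (1.30), Srp19 (1.03) and Sec11c (1.64) are under 1000 nt long and did not pass with the length trend out. Srp54a (1.01) and Srp54c (-1.13) are near-identical copies of a signal recognition particle gene and went in opposite directions, so that the sharing of reads between them leaves both values uncertain. Without single libraries the counts of higher and lower genes were 7 and 2 without Lsm1_KD replicate 1 or Ctrl replicate 2, 6 and 2 without Lsm1_KD replicate 2, 5 and 2 without Ctrl replicate 1.

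In the ER stress response, 5 of 40 tested genes were lower (12.5%) and 1 was higher (2.5%), with a median of -0.31 (-0.32 with the length trend taken out). Creld2, a secreted ER protein induced by unfolded proteins, was at 121 and 88.8 CPM in Lsm1_KD and 287 and 254 CPM in Ctrl. Its knockdown values were below both control values, a log2 fold change of -1.37 (SE 0.22, adjusted p = 0.00579). The ER chaperone Hsp90b1 (GRP94) was at 233 and 200.1 CPM in Lsm1_KD and 478 and 378 CPM in Ctrl, a log2 fold change of -0.98 (SE 0.21, adjusted p = 0.0158) that did not pass without Lsm1_KD replicate 2 (adjusted p = 0.0793) or Ctrl replicate 1 (0.0691). Hspa5 (BiP) at -0.95, the disulfide isomerase P4hb at -1.22 and the sensor Ern1 (IRE1) at -0.94 were the other lower genes. The gene that was higher was Ddit3 (CHOP), a transcription factor of prolonged ER stress, at 12.9 and 16.4 CPM in Lsm1_KD and 2.49 and 5.37 CPM in Ctrl, which did not pass with the length trend out (1.20, adjusted p = 0.194). Counts were 0 and 4 without Lsm1_KD replicate 1, 0 and 3 without Lsm1_KD replicate 2, 0 and 2 without Ctrl replicate 1, 1 and 2 without Ctrl replicate 2. Among 34 genes of the COPI and COPII vesicle coats, whose median was -0.10 (-0.11 with the length trend taken out), Arf3 was higher (1.22, adjusted p = 0.0143) and Sec23a of the COPII inner coat lower (-1.26, adjusted p = 0.0187). Neither passed without Lsm1_KD replicate 2 (adjusted p = 0.068 and 0.0791), nor Sec23a without Ctrl replicate 2 (0.0837).

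Genes of the actin cytoskeleton, which in the egg and zygote drives spindle placement, polar body extrusion and vesicle transport, were changed in both directions. Of 49 tested genes of actin nucleation and turnover, 9 were higher (18.4%) and 5 lower (10.2%), with a median of -0.053 (-0.051 with the length trend taken out). Myo5b, a motor that carries vesicles along actin, was at 199 and 155 CPM in Lsm1_KD and 471 and 566 CPM in Ctrl. Its groups did not overlap, with a log2 fold change of -1.55 (SE 0.21, adjusted p = 0.00248). Subunits of the WAVE complex, which activates branched actin nucleation, went in different directions. Abi1 was at 293 and 292 CPM in Lsm1_KD and 99.2 and 114 CPM in Ctrl, a log2 fold change of 1.45 (SE 0.20, adjusted p = 0.00267), and Wasf1 (1.37, adjusted p = 0.0249) and Wasf2 (0.87, adjusted p = 0.0275) were also higher. Nckap1 of the same complex was at 142 and 126 CPM in Lsm1_KD and 307 and 370.5 CPM in Ctrl, a log2 fold change of -1.34 (SE 0.20, adjusted p = 0.00404). The lower genes also held 2 subunits of the Arp2/3 nucleator, Actr3 (-1.02) and Arpc2 (-1.06), and the formin Fmnl2 (-1.20). Among small proteins that bind actin monomers or sever filaments, Pfn1 (1.81), Tmsb10 (1.63), Cfl1 (1.07) and Cfl2 (0.94) were higher, and Pfn2 (0.037, adjusted p = 0.973), Dstn (0.68, adjusted p = 0.171) and Cap1 (1.60, adjusted p = 0.101) did not pass. Of the 4 that were higher, Cfl2 alone passed with the length trend out. Actb (1.24) and Fmnl3 (0.96) complete the list. Without Lsm1_KD replicate 2 there were 6 higher and 2 lower genes.

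**Figure D2:**
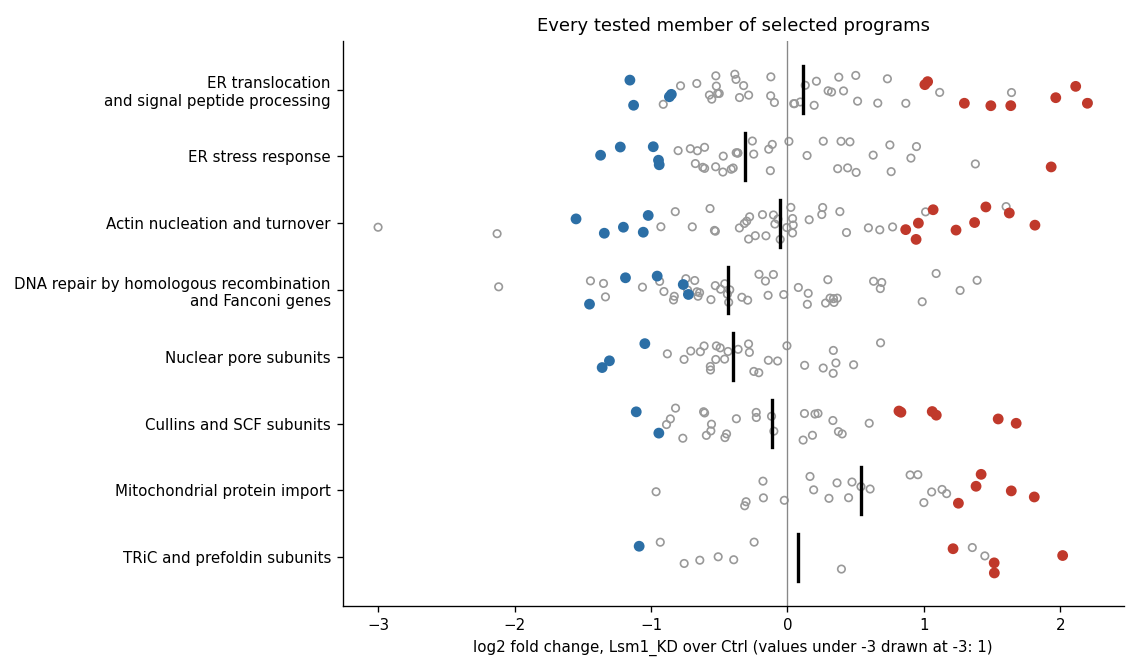
Log2 fold change of Lsm1_KD over Ctrl (x axis) for every tested member of 8 gene lists (y axis). Filled points passed at an adjusted p under 0.05 (red higher, blue lower), open points did not, black bars are list medians, and vertical scatter within a list carries no value. Actin genes hold filled points on both sides, while those of homologous recombination and of the nuclear pore lie below 0.

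Cullin-RING ligases tag proteins with ubiquitin and take part in removing maternal proteins. Of 33 tested subunits and regulators, 6 were higher (18.2%) and 2 lower (6.06%), with a median of -0.12 (-0.18 with the length trend taken out). Rbx1, the RING subunit that recruits the ubiquitin-conjugating enzyme, was at 569.6 and 767 CPM in Lsm1_KD and 210.4 and 208 CPM in Ctrl. The control values nearly coincided and both knockdown values were far above them, a log2 fold change of 1.68 (SE 0.21, adjusted p = 0.00179). Eloc (elongin C), an adaptor, was at 125 and 155 CPM in Lsm1_KD and 56.1 and 39.8 CPM in Ctrl, a log2 fold change of 1.54 (SE 0.25, adjusted p = 0.00593), and Skp1, the adaptor of SCF ligases, rose by 1.09 (adjusted p = 0.00798). The scaffolds Cul5 (0.83) and Cul3 (-1.11) went in opposite directions, as did the COP9 signalosome subunits Cops2 (0.82) and Gps1 (-0.94). Nedd8, the ubiquitin-like activator of cullins, was also higher (1.06) and did not pass with the length trend out (-0.0074, adjusted p = 0.991). Counts were 4 and 4 without Lsm1_KD replicate 1, 3 and 1 without Lsm1_KD replicate 2 or Ctrl replicate 2, 3 and 3 without Ctrl replicate 1. Among 30 ubiquitin-conjugating enzymes with a median of 0.40 (0.43 with the length trend taken out), Cdc34, the enzyme that works with SCF, was at 214 and 223 CPM in Lsm1_KD and 418 and 386 CPM in Ctrl, a log2 fold change of -0.88 (SE 0.19, adjusted p = 0.0173), and Ube2n at 0.84 (adjusted p = 0.0499). Neither passed without Lsm1_KD replicate 2 (adjusted p = 0.0615 and 0.246) or Ctrl replicate 1 (0.0598 and 0.0515), nor Ube2n without Ctrl replicate 2 (0.219).

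Prefoldin, which hands new actin and tubulin to the chaperonin TRiC, and TRiC itself showed opposite calls. Of 14 tested subunits of both, 4 were higher, all of prefoldin, and 1, the TRiC subunit Cct7 (-1.09, adjusted p = 0.0284), was lower. The list median was 0.076 (0.017 with the length trend taken out). Pfdn1 was at 169 and 192 CPM in Lsm1_KD and 43.2 and 46 CPM in Ctrl. Both knockdown libraries were above both controls, a log2 fold change of 2.02 (SE 0.22, adjusted p = 0.00119), and 1.59 (adjusted p = 0.00286) with the length trend out. Pfdn5 (1.51, adjusted p = 0.00765), Pfdn2 (1.52, adjusted p = 0.00884) and Vbp1 (1.21, adjusted p = 0.0329) were higher too, and Pfdn5 and Pfdn2, at 678 and 622 nt, did not pass with the length trend out. Counts were 3 and 0 without Lsm1_KD replicate 2 or Ctrl replicate 2.

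In autophagy, 4 of 39 tested genes were lower and 1 was higher, with a median of 0.02 (-0.056 with the length trend taken out). Together 12.8% of the list passed, against 11% of all features tested. The lower genes were Rb1cc1 (FIP200), a scaffold of the initiating kinase complex, at 317 and 289 CPM in Lsm1_KD and 524 and 521 CPM in Ctrl (-0.78, adjusted p = 0.0244), the conjugation proteins Atg5 (-0.73) and Atg12 (-0.71), and the cargo receptor Tax1bp1 (-0.66). Calcoco1 was higher (1.37, adjusted p = 0.0205). No gene of this list passed without Lsm1_KD replicate 2 or Ctrl replicate 2, and counts were 1 higher and 2 lower without Lsm1_KD replicate 1 and 1 and 0 without Ctrl replicate 1. The adjusted p of Rb1cc1 was 0.13, 0.0645 and 0.0521 without Lsm1_KD replicate 2, Ctrl replicate 1 and Ctrl replicate 2, and that of Calcoco1 0.0791, 0.0629 and 0.0599. Of 35 tested genes of the lysosomal proton pump (V-ATPase) and lysosomal enzymes, 3 were higher and 2 lower, with a median of -0.16 (-0.19 with the length trend taken out). Atp6v1e1, a stalk subunit of the pump, was at 128 and 142 CPM in Lsm1_KD and 37.6 and 45.3 CPM in Ctrl, a log2 fold change of 1.71 (SE 0.23, adjusted p = 0.0026), and Atp6v1a, its catalytic subunit, changed by -1.18 (adjusted p = 0.0216). The lysosomal membrane proteins Laptm4a (1.24, adjusted p = 0.00859) and Laptm4b (-0.85, adjusted p = 0.0182) also went in opposite directions. Atp6v1f (1.72, 635 nt) did not pass with the length trend out. Counts were 4 and 5 without Lsm1_KD replicate 1, 2 and 1 without Lsm1_KD replicate 2 or Ctrl replicate 2.

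Genes of protein import into mitochondria were higher where they passed. Of 25 tested, 5 were higher (20%) and 0 lower in edgeR, with 19 of 25 values above 0 and a median of 0.54 (0.30 with the length trend taken out). An unadjusted p under 0.05 was reached by 8 higher and 0 lower genes, and DESeq2 gave 6 and 0. Timm8b and Timm9, small chaperones of the intermembrane space, were at 249.9 and 454 CPM in Lsm1_KD and 125 and 101 CPM in Ctrl and at 70.3 and 83.1 CPM in Lsm1_KD and 28.8 and 28.6 CPM in Ctrl. Their log2 fold changes were 1.64 (adjusted p = 0.00706) and 1.42 (adjusted p = 0.00817). Tomm6 (1.81), Pam16 (1.38) and Dnajc19 (1.25) were the others. All 5 are between 527 and 953 nt long, and none of the list passed with the length trend out. Counts were 5 and 1 without Lsm1_KD replicate 1, 3 and 0 without Lsm1_KD replicate 2 or Ctrl replicate 1.

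Among 33 tested antioxidant enzymes, 4 were higher (12.1%) and 2 lower, with a median of 0.10 (-0.071 with the length trend taken out). Sod1, the cytosolic superoxide dismutase, was at 236 and 325 CPM in Lsm1_KD and 81.8 and 58.1 CPM in Ctrl. Its groups were well apart, with a log2 fold change of 2.0 (SE 0.25, adjusted p = 0.00186), and 0.99 (adjusted p = 0.0197) with the length trend out for a transcript of 648 nt. Mgst3 was at 712 and 886 CPM in Lsm1_KD and 356 and 420.0 CPM in Ctrl, a difference of 1.04 (adjusted p = 0.0109) that was -0.0057 (adjusted p = 0.99) with the length trend out, and Selenow (1.64) and Glrx5 (1.58) did not pass then either. Mgst3 was also at an adjusted p of 0.0553 without Lsm1_KD replicate 2. Lower genes were the glutathione peroxidase Gpx1 (-1.36) and Nfe2l2 (-1.04), the transcription factor NRF2 that induces many of these enzymes. Counts were 4 and 1 without Lsm1_KD replicate 1, 1 and 0 without Lsm1_KD replicate 2, 5 and 0 without Ctrl replicate 1, 3 and 0 without Ctrl replicate 2.

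Metabolism was covered by 4 lists. The sensor pair of cholesterol synthesis changed in opposite directions. Scap, which escorts SREBP transcription factors from the ER, was at 219.8 and 252 CPM in Lsm1_KD and 568 and 599 CPM in Ctrl, a log2 fold change of -1.31 (SE 0.19, adjusted p = 0.00324). Insig1, which holds SCAP in the ER, was at 1039.8 and 942 CPM in Lsm1_KD and 441 and 452 CPM in Ctrl, a log2 fold change of 1.15 (SE 0.18, adjusted p = 0.0051). Both passed in all 11 settings and were the only genes of the list of 18 tested to pass in edgeR, so that no enzyme of the pathway did. Its median was -0.14 (-0.16 with the length trend taken out), and the share that passed was 11.1%, near the 11% of all features tested. In glycolysis, 1 of 17 tested genes passed, Pgk1, a step that yields ATP, at 18.5 and 11.5 CPM in Lsm1_KD and 49.4 and 44.1 CPM in Ctrl (-1.66, adjusted p = 0.013). It did not pass without Lsm1_KD replicate 2 (adjusted p = 0.0619), and the list had 2 lower genes without Lsm1_KD replicate 1 and 3 without Ctrl replicate 1. None was higher, with 3 at an unadjusted p under 0.05 and 0 by DESeq2. Of 28 genes of pyruvate dehydrogenase and the TCA cycle, 2 were lower, Me1 (-0.86, adjusted p = 0.0201) and Pdk1 (-0.92, adjusted p = 0.0349), and none was higher by edgeR, by DESeq2 or at an unadjusted p under 0.05. The median was -0.27 (-0.37 with the length trend taken out), and counts were 0 and 1 without Lsm1_KD replicate 1 or Ctrl replicate 2, 0 and 0 without Lsm1_KD replicate 2 or Ctrl replicate 1. Without Lsm1_KD replicate 2 or Ctrl replicate 1 the adjusted p of Me1 was 0.101 or 0.0736, and that of Pdk1 lay between 0.0857 and 0.12 in the fits without one of the 4 libraries. Of 34 genes of nucleotide synthesis (median -0.33, or -0.39 with the length trend taken out), 2 were higher, Pfas (2.44, adjusted p = 0.0343) and the dUTPase Dut (0.81, adjusted p = 0.0248), and 2 lower, among them Ctps (-0.72, adjusted p = 0.0488), with counts of 1 and 1 without Lsm1_KD replicate 1, 1 and 0 without Lsm1_KD replicate 2, 0 and 1 without Ctrl replicate 1, 2 and 0 without Ctrl replicate 2. Pfas did not pass without Lsm1_KD replicate 1 (adjusted p = 0.165) or Ctrl replicate 1 (0.0897), nor Dut without Lsm1_KD replicate 2 (0.0926) or Ctrl replicate 1 (0.108).

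Cytosolic aminoacyl-tRNA synthetases, which load tRNAs with amino acids, had the lowest median of the 31 programs, -0.46 (-0.45 with the length trend taken out), over 20 tested genes. Eprs, which loads glutamate and proline, was at 175 and 191 CPM in Lsm1_KD and 404 and 427 CPM in Ctrl. Both knockdown values were under both control values, a log2 fold change of -1.18 (SE 0.19, adjusted p = 0.00524). Wars (-0.95, adjusted p = 0.0304) was also lower, and Nars (0.80, adjusted p = 0.0358) and the scaffold Aimp1 (1.54, adjusted p = 0.0423) were higher. Counts were 1 and 1 without Lsm1_KD replicate 1, 0 and 1 without Lsm1_KD replicate 2, 0 and 2 without Ctrl replicate 1 or Ctrl replicate 2. Wars did not pass in any fit without one of the 4 libraries (adjusted p from 0.0736 to 0.106).

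The transcription machinery showed the same mix of directions. Of 30 tested subunits of RNA polymerases I, II and III, 5 were higher (16.7%) and 1 lower, with a median of 0.32 (0.021 with the length trend taken out). Polr1d, which polymerases I and III share, was at 64.3 and 78.8 CPM in Lsm1_KD and 21.8 and 17.4 CPM in Ctrl, a log2 fold change of 1.87 (SE 0.28, adjusted p = 0.00383), and 1.22 (adjusted p = 0.0184) with the length trend out. Polr2f (1.23, adjusted p = 0.0126), Polr2i (1.75, adjusted p = 0.026), Polr2l (1.44, adjusted p = 0.0375) and Polr3g (2.31, adjusted p = 0.0411) were higher too, and the first 2 of these, at 569 and 690 nt, did not pass with the length trend out. Polr2b, the second largest subunit of polymerase II, was lower (-0.97, adjusted p = 0.0429). Polr2f also did not pass without Lsm1_KD replicate 2 (adjusted p = 0.0769). Counts were 3 and 0 without Lsm1_KD replicate 1 or Ctrl replicate 2, 1 and 0 without Lsm1_KD replicate 2, 3 and 1 without Ctrl replicate 1.

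Of 32 subunits of Mediator, which links activators to polymerase II, 4 were higher and 2 lower (median 0.065, or 0.05 with the length trend taken out). Cdk8, the kinase of the complex, was at 151 and 133 CPM in Lsm1_KD and 361 and 354 CPM in Ctrl, a log2 fold change of -1.33 (SE 0.19, adjusted p = 0.00342). Med30 was at 584 and 745 CPM in Lsm1_KD and 242 and 147 CPM in Ctrl, a log2 fold change of 1.77 (SE 0.26, adjusted p = 0.00331), and 1.09 (adjusted p = 0.0146) with the length trend out for a transcript of 871 nt, and Med31 rose by 1.46 (adjusted p = 0.00891). Med18 (1.96) and Med19 (1.21) were higher and Med27 (-0.86) lower, with counts of 3 and 1 without Lsm1_KD replicate 1 or Lsm1_KD replicate 2, 2 and 2 without Ctrl replicate 1, 4 and 1 without Ctrl replicate 2. Among 45 general transcription factors (median -0.025, or -0.023 with the length trend taken out), 6 were higher (13.3%) and 4 lower (8.89%). Taf10, a subunit of TFIID and SAGA, was at 136 and 160.4 CPM in Lsm1_KD and 44.6 and 33.3 CPM in Ctrl, a log2 fold change of 1.93 (SE 0.25, adjusted p = 0.00199), and 1.08 (adjusted p = 0.0161) with the length trend out. Gtf2b (TFIIB) was at 209 and 204 CPM in Lsm1_KD and 463 and 427 CPM in Ctrl, a log2 fold change of -1.11 (SE 0.19, adjusted p = 0.00674). Counts were 5 and 2 without Lsm1_KD replicate 1, 1 and 1 without Lsm1_KD replicate 2, 3 and 2 without Ctrl replicate 1.

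Eny2, a small subunit of the SAGA coactivator and of the mRNA export complex TREX-2, had the largest value among genes of histone acetyltransferase complexes. It lies on chromosome 15, 44428082 to 44438256, and was at 854 and 1131 CPM in Lsm1_KD and 241 and 184 CPM in Ctrl. The knockdown libraries were above the controls in every pairing, with a log2 fold change of 2.22 (SE 0.23, adjusted p = 0.00106), and 2.20 (adjusted p = 0.00107) with the length trend out. Of the 38 tested genes of these complexes, 10.5% passed, near the 11% of all features tested. Hat1 (-1.20, adjusted p = 0.0209), the cytoplasmic enzyme that acetylates new histone H4, and Tada1 (-0.72, adjusted p = 0.0476) were lower and Msl2 (0.76, adjusted p = 0.047) higher, so that 2 were higher and 2 lower of 38, with a median of 0.041 (0.027 with the length trend taken out) and counts of 1 and 2 without Lsm1_KD replicate 1 or Ctrl replicate 1, 1 and 0 without Lsm1_KD replicate 2 or Ctrl replicate 2. Hat1 was at an adjusted p of 0.107 without Lsm1_KD replicate 2 and 0.0717 without Ctrl replicate 2. In 38 genes of SWI/SNF, ISWI and INO80 remodellers (median -0.053, or -0.032 with the length trend taken out), the ATPase Smarca4 (BRG1) was lower (-0.87, adjusted p = 0.0361) and Smarce1 higher (0.93, adjusted p = 0.0326). Without Lsm1_KD replicate 2 their adjusted p were 0.14 and 0.134, without Lsm1_KD replicate 1 0.0652 and 0.0556 and without Ctrl replicate 2 0.191 and 0.133, and Smarce1 did not pass without Ctrl replicate 1 either (0.0642).

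Nuclear pore subunits were lower where they passed. Of 30 tested, 3 were lower (10%) and none higher, 23 of 30 values were below 0 and the median was -0.40 (-0.34 with the length trend taken out). At an unadjusted p under 0.05 there were 10 lower and 1 higher, and DESeq2 gave 4 and 1. Nup35 was at 356 and 289 CPM in Lsm1_KD and 716 and 614 CPM in Ctrl, a log2 fold change of -1.05 (SE 0.20, adjusted p = 0.0103) that did not pass without Lsm1_KD replicate 2 (adjusted p = 0.0628). Ndc1, which anchors the pore in the membrane, was at 22.9 and 29.3 CPM in Lsm1_KD and 72.4 and 57.2 CPM in Ctrl, a log2 fold change of -1.30 (SE 0.28, adjusted p = 0.0178) that did not pass without Lsm1_KD replicate 1 (0.0584) or Ctrl replicate 1 (0.0765), and the channel nucleoporin Nupl1 was at -1.36 (adjusted p = 0.0227). Without Ctrl replicate 2 there were 1 higher and 3 lower genes. Among 27 import and export receptors (median -0.27, or -0.24 with the length trend taken out), the importin Ipo11 alone passed, at 2.23 and 2.11 CPM in Lsm1_KD and 9.9 and 12.4 CPM in Ctrl (-2.36, adjusted p = 0.0286), and it did not pass in any fit without one of the 4 libraries (adjusted p from 0.051 to 0.105). None was higher, with 5 at an unadjusted p under 0.05 and 2 by DESeq2.

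DNA repair was covered by 2 lists. Of 50 tested genes of homologous recombination and the Fanconi pathway, which mend double-strand breaks and crosslinks, 5 were lower (10%) and none higher, 34 values were below 0 and the median was -0.44 (-0.37 with the length trend taken out). At an unadjusted p under 0.05 there were 15 lower and 4 higher, and DESeq2 gave 8 and 2. Rmi1, a partner of the BLM helicase, was at 98.1 and 91.2 CPM in Lsm1_KD and 259 and 258 CPM in Ctrl. The 4 libraries fell into close pairs, a log2 fold change of -1.45 (SE 0.20, adjusted p = 0.00267). Brca1 was at 62.3 and 59.8 CPM in Lsm1_KD and 135 and 143 CPM in Ctrl, a log2 fold change of -1.19 (SE 0.22, adjusted p = 0.00859). Rad50 (-0.76), Rnf8 (-0.73) and Fancm (-0.95) were the other lower genes, and Rad50 and Fancm did not pass with the length trend out. Counts were 1 and 3 without Lsm1_KD replicate 1, 1 and 4 without Ctrl replicate 1, 0 and 2 without Ctrl replicate 2.

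Of 42 tested genes of base excision, nucleotide excision and mismatch repair (median -0.078, or -0.13 with the length trend taken out), 4 were higher and 1 lower. Together these were 11.9% of the list, near the 11% of all features tested. Rpa3, the smallest subunit of the single-strand binding protein RPA, was at 280.1 and 488 CPM in Lsm1_KD and 95 and 60 CPM in Ctrl. It was high in both knockdown libraries, a log2 fold change of 2.31 (SE 0.31, adjusted p = 0.00229), and 1.28 (adjusted p = 0.0145) with the length trend out. Rad23b, a damage recognition partner of XPC, was at 194 and 214 CPM in Lsm1_KD and 83.3 and 51.5 CPM in Ctrl, a log2 fold change of 1.59 (SE 0.26, adjusted p = 0.0057). Cetn2 (1.70) and Lig1 (1.04) were higher and the mismatch repair gene Msh3 lower (-1.15). Without Ctrl replicate 2 there were 2 higher and 0 lower genes.

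At fertilization, calcium released in waves activates the egg. Of 36 tested genes of egg activation and calcium signalling (median 0.17, or 0.16 with the length trend taken out), 3 were higher and 1 lower. Together these were 11.1% of the list, near the 11% of all features tested. Calm2, 1 of the genes for the calcium sensor calmodulin, was at 141 and 223 CPM in Lsm1_KD and 46.9 and 37.2 CPM in Ctrl, a log2 fold change of 2.12 (SE 0.27, adjusted p = 0.00211), and 1.82 (adjusted p = 0.00258) with the length trend out. Marcks, a target of protein kinase C at the cell cortex, was at 12.9 and 12.7 CPM in Lsm1_KD and 2.63 and 2.07 CPM in Ctrl (2.43, adjusted p = 0.0205) and did not pass without Lsm1_KD replicate 1 (adjusted p = 0.0523) or replicate 2 (0.0771). Izumo1r (JUNO), the sperm receptor of the egg, was higher (1.30, adjusted p = 0.0246), and Camk2g, the calmodulin-dependent kinase of the egg, was lower (-0.79, adjusted p = 0.0243). Counts were 2 and 0 without Lsm1_KD replicate 1 or Ctrl replicate 2, 1 and 0 without Lsm1_KD replicate 2, 4 and 0 without Ctrl replicate 1.

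In cAMP and protein kinase A signalling, which holds the oocyte in meiotic arrest, 1 of 32 tested genes passed (median -0.23, or -0.19 with the length trend taken out). It was Akap9, a large scaffold that anchors the kinase at centrosomes and the Golgi, at 88.3 and 72.5 CPM in Lsm1_KD and 212 and 216 CPM in Ctrl, a log2 fold change of -1.41 (SE 0.21, adjusted p = 0.00388). None was higher, with 1 at an unadjusted p under 0.05 and 1 by DESeq2, and without Ctrl replicate 1 the list had 2 lower genes. Of 39 genes of oocyte growth factor signalling (median -0.10, or 0.025 with the length trend taken out), Gdf9, the growth factor that the oocyte sends to its follicle cells, was at 1776 and 1387 CPM in Lsm1_KD and 2697 and 3996 CPM in Ctrl. It was lower in both knockdown libraries, a log2 fold change of -1.08 (SE 0.23, adjusted p = 0.0182) that did not pass without Lsm1_KD replicate 2 (adjusted p = 0.0817). Bmp6 (-0.74) and the activin receptor Acvr1b (-1.24) were lower, and Smad2 (0.86) and the kinase Gsk3a (1.38, adjusted p = 0.00859) were higher. With Gdf9 these were 12.8% of the list, against 11% of all features tested. Counts were 1 and 1 without Lsm1_KD replicate 1 or Ctrl replicate 2, 1 and 0 without Lsm1_KD replicate 2, 1 and 2 without Ctrl replicate 1. Of 38 protein phosphatase genes (median -0.16, or -0.15 with the length trend taken out), 10.5% passed, near the 11% of all features tested. Ppp1r14b, an inhibitor of phosphatase 1, was at 115 and 114 CPM in Lsm1_KD and 42 and 44.8 CPM in Ctrl, a log2 fold change of 1.40 (SE 0.23, adjusted p = 0.00571), and 0.77 (adjusted p = 0.0628) with the length trend out. Ppp2r5d (1.35) and Ppp4r3a (1.17) were also higher and Ppp4r1 lower (-1.0, adjusted p = 0.0226), with counts of 3 and 3 without Lsm1_KD replicate 1, 2 and 0 without Lsm1_KD replicate 2, 1 and 2 without Ctrl replicate 1. Ppp4r1 did not pass without Lsm1_KD replicate 2 (adjusted p = 0.0571) or Ctrl replicate 2 (0.12).

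Because siRNA is double-stranded, genes of double-stranded RNA sensing and the interferon response were examined. Both groups were given siRNA, so that a response shared by them cannot appear in this comparison. Of 43 genes, 22 passed the abundance filter and none passed the test in edgeR, while 4 higher and 0 lower reached an unadjusted p under 0.05 and DESeq2 gave 1 and 0. The median was 0.65 (0.40 with the length trend taken out), and 16 values were above 0. Cgas, the most abundant tested member, was at 162 and 195 CPM in Lsm1_KD and 146 and 168 CPM in Ctrl (0.19, adjusted p = 0.613), and the groups overlapped. Without Lsm1_KD replicate 2 or Ctrl replicate 2 there was 1 higher gene.

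Of 39 tested p53 targets and apoptosis genes (median 0.18, or 0.12 with the length trend taken out), 3 were higher and 1 lower. Together these were 10.3% of the list, near the 11% of all features tested. Cycs (cytochrome c), which carries electrons in respiration and triggers apoptosis in the cytosol, was at 106 and 124 CPM in Lsm1_KD and 34.1 and 39 CPM in Ctrl, a log2 fold change of 1.66 (SE 0.24, adjusted p = 0.00322). Pdcd5 was at 73.9 and 82.8 CPM in Lsm1_KD and 21.3 and 23.1 CPM in Ctrl (1.82, adjusted p = 0.00309) and did not pass with the length trend out, Pdcd4 was higher (1.57, adjusted p = 0.011), and the mitochondrial protease Htra2 was lower (-0.89, adjusted p = 0.0488). Counts were 2 and 0 without Lsm1_KD replicate 1, 3 and 0 without Lsm1_KD replicate 2, 4 and 0 without Ctrl replicate 2.

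Over the 31 programs together, 81 of 1034 tested members were higher and 62 lower, so that 13.8% passed, against 11% of all features tested, and the median was -0.056. The lists were chosen with earlier results of these data known, so that the difference in shares cannot be read as an enrichment. Several other lists were near or below that 11%, among them nucleotide synthesis (11.8%), ubiquitin-conjugating enzymes (6.67%), vesicle coats (5.88%) and chromatin remodellers (5.26%). The medians of the lists ran from -0.46 for aminoacyl-tRNA synthetases to 0.65 for double-stranded RNA sensing. Taking the length trend out moved the median of RNA polymerase subunits from 0.32 to 0.021 and that of ER translocation from 0.11 to -0.14. The sign of the median changed in 4 of the 31 lists with the length trend out and in 10 on TPM, where 28 medians were below 0.

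**Figure D3:**
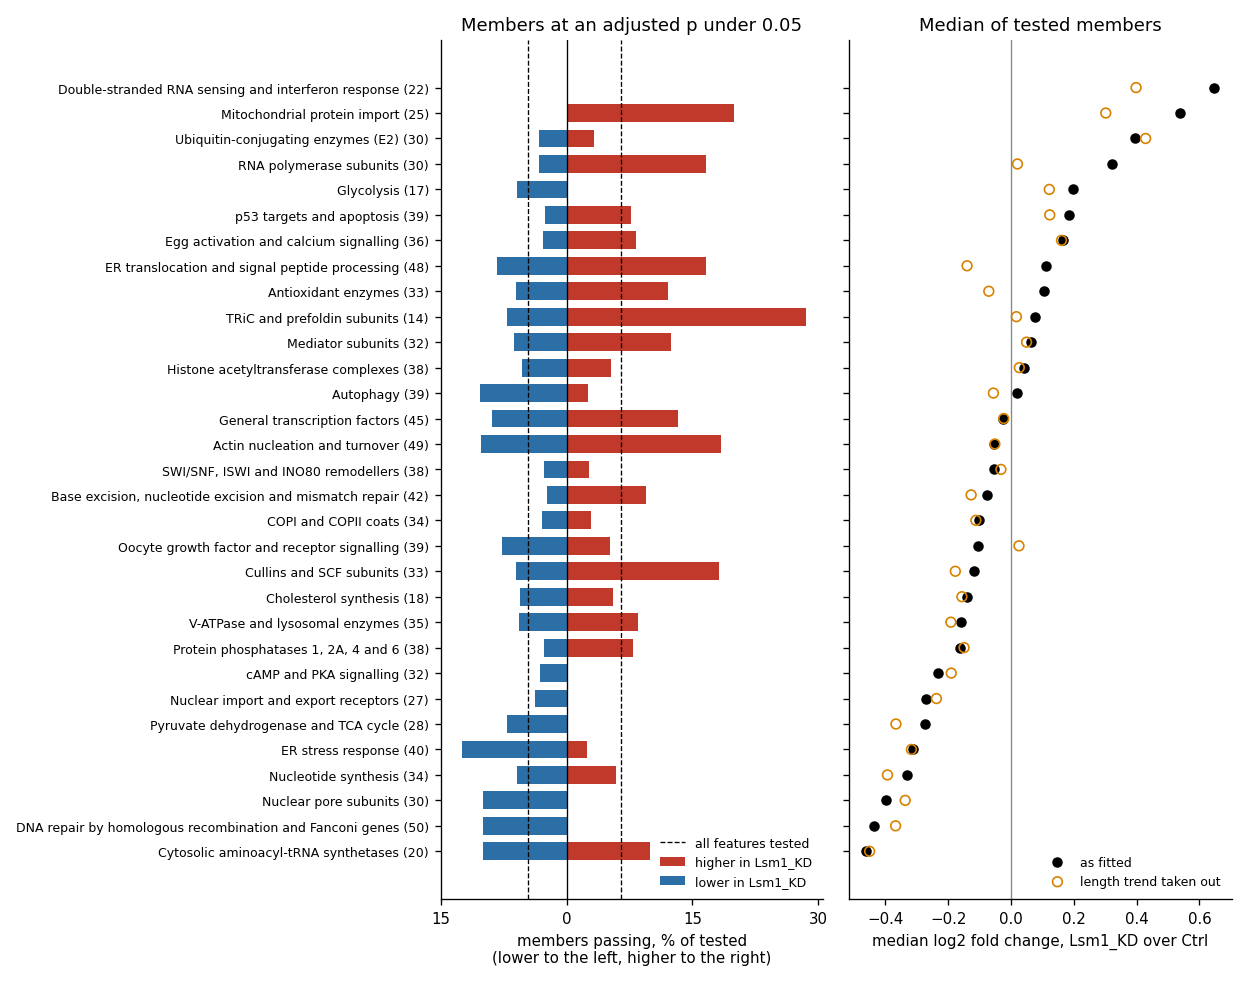
Gene lists (y axis, number of tested genes in parentheses) by the share of members passing at an adjusted p under 0.05 (left, % of tested, lower to the left and higher to the right, dashed lines at 4.56% and 6.45% for all features) and by median log2 fold change (right, filled as fitted, open with the length trend taken out). Of the 31 programs, TRiC and prefoldin show the largest higher share (28.6%) and the ER stress response the largest lower share (12.5%).

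Among single features with the largest changes, most had few counts in the lower group. The increases, required to average 50 counts or more in Lsm1_KD, were led among named genes by Tubgcp4, a subunit of the gamma-tubulin ring that nucleates microtubules, at 191 and 239 CPM in Lsm1_KD and 4.98 and 7.02 CPM in Ctrl (5.19, adjusted p = 2.24e-05). The most abundant of the 4 Tubgcp4 transcripts in these libraries is annotated as non-coding. Prss43 was at 27.6 and 27.5 CPM in Lsm1_KD and 1.35 and 1.1 CPM in Ctrl (4.45, adjusted p = 0.00106), and Krt10 at 10.7 and 7.17 CPM in Lsm1_KD and 0.741 and 1.1 CPM in Ctrl (3.28, adjusted p = 0.0209). Dnajc15, a cochaperone of mitochondrial import, was at 8.9 and 12.3 CPM in Lsm1_KD and 0.808 and 0.551 CPM in Ctrl (3.91, adjusted p = 0.00815, and 2.91 with the length trend out), and Rtl8b at 6.01 and 7.54 CPM in Lsm1_KD and 0.202 and 0.413 CPM in Ctrl (4.50, adjusted p = 0.0158). Neither passed without Lsm1_KD replicate 2 (adjusted p = 0.0563 and 0.077), nor Krt10 without Lsm1_KD replicate 1 (0.0868) or Ctrl replicate 1 (0.0547). The respiratory genes Cox6a2 (3.61, adjusted p = 0.0428) and Ndufa5 (3.28, adjusted p = 0.0273) did not pass with the length trend out. Without Lsm1_KD replicate 2 they were at adjusted p of 0.197 and 0.172, Cox6a2 without Ctrl replicate 2 at 0.1 and Ndufa5 without Ctrl replicate 1 at 0.0743. Major satellite repeats (GSAT), measured as 1 feature for all genomic copies, were at 70.1 and 16.4 CPM in Lsm1_KD and 1.62 and 4.27 CPM in Ctrl (3.93, adjusted p = 0.00817, and 2.64 with the length trend out), and the knockdown replicates differed from each other more than the controls did.

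Of the decreases, Oaz1-ps had 0 counts in both knockdown libraries and 241 and 307 CPM in Ctrl, at least 1403-fold lower with a floor of 3 counts summed over both libraries. The bound was 993-fold without Lsm1_KD replicate 1 and 410.1-fold without replicate 2. Gm3286 (16 and 18 CPM in Ctrl, at least 87.1-fold lower, 61.7 and 25.5 without either library in turn) and Gm28043 (6.94 and 1.24 CPM in Ctrl) were at 0 too. Oaz1-ps is a pseudogene whose sequence resembles its parent gene, and the assignment of reads between them was not tested. Oaz1-ps also did not pass the abundance filter in the lysate libraries described below, which held 25612092 to 31586450 estimated counts. A low level was thus not particular to the knockdown libraries, though the lysate was made with another kit. Mmp24, a membrane-bound metalloproteinase, was at 0 and 0.276 CPM in Lsm1_KD and 10.5 and 13.1 CPM in Ctrl (-5.90, adjusted p = 0.00385) and passed in all 11 settings. Catsperd, a subunit of the sperm calcium channel, was at 0 and 0.184 CPM in Lsm1_KD and 7.41 and 4.13 CPM in Ctrl (-5.43, adjusted p = 0.0182) and Zp3r at 0.668 and 0.459 CPM in Lsm1_KD and 11.4 and 4.27 CPM in Ctrl (-3.84, adjusted p = 0.0227). Neither passed without Ctrl replicate 1 (adjusted p = 0.0804 and 0.206), nor Zp3r without Lsm1_KD replicate 2 (0.0851). Gm28043 did not pass without Lsm1_KD replicate 2 (0.0966) or Ctrl replicate 1 (0.208), nor Gm428 (-3.97, adjusted p = 0.0354) without Ctrl replicate 1 (0.273). The olfactory receptor Olfr1349 (-5.03, adjusted p = 0.0402) did not pass without Lsm1_KD replicate 2 (0.135) or Ctrl replicate 2 (0.12).

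**Figure D4:**
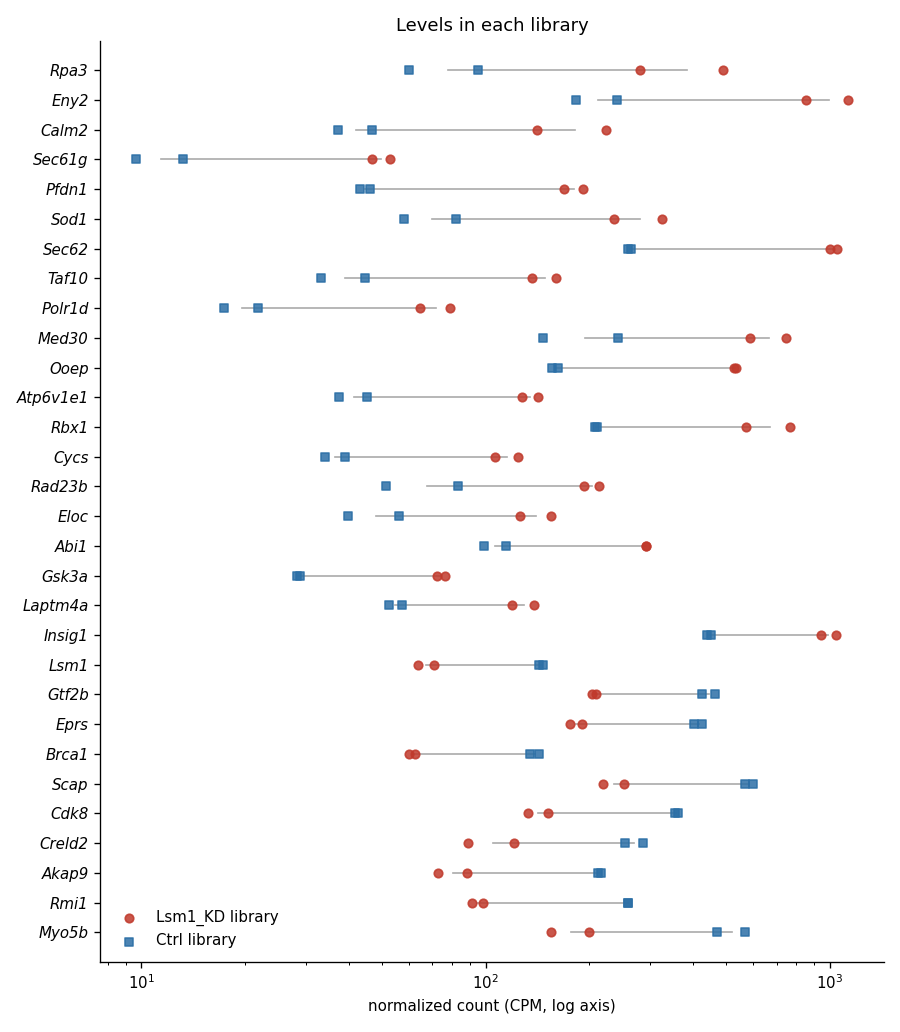
Normalized count (x axis, CPM, log axis) in each knockdown (red circles) and control library (blue squares), with grey lines between group means. Genes (y axis) are Lsm1 and the list and marker genes picked by smallest adjusted p, up to 2 per list. All passed in the test and in all 11 alternative settings, and other list members that did so are not drawn. In all 30 genes shown, 20 higher and 10 lower, the groups do not overlap, as in every feature called up or down.

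The libraries held nearly all of the listed oocyte and zygote markers, which were not chosen to tell a zygote from an unfertilized oocyte. The 29 oocyte and zygote markers summed to 21048 to 24588 CPM per library, here over all estimated counts, and 4 of 28 tested were higher and 4 lower, with a median of -0.12 (-0.33 with the length trend taken out). Ooep, a subunit of the subcortical maternal complex, was at 525 and 533 CPM in Lsm1_KD and 163 and 156 CPM in Ctrl (1.73, adjusted p = 0.00119), and Npm2, the histone chaperone nucleoplasmin of the egg, at 765 and 967 CPM in Lsm1_KD and 386 and 371 CPM in Ctrl (1.19, adjusted p = 0.0058). Oosp2 (1.53) and Npm3 (2.09) were higher, and Nlrp14 (-1.42), Dazl (-0.91) and Zp1 (-0.95) were lower along with Gdf9. Npm2, Oosp2 and Npm3 did not pass with the length trend out. Without Lsm1_KD replicate 2 there were 3 higher and 2 lower markers. The 30 cumulus and granulosa markers summed to 50.5 and 75.4 CPM in Lsm1_KD and 63.6 and 54.3 CPM in Ctrl, with 14 at 0 in all 4 libraries, among them Amh, Fshr and Foxl2. The highest was Nr5a2, at 24.4 and 39.7 CPM in Lsm1_KD and 36.7 and 26.4 CPM in Ctrl. Cyp19a1 was at 11.2 and 12.9 CPM in Lsm1_KD and 10.8 and 16.1 CPM in Ctrl. The 37 sperm and testis markers summed to 209 and 216 CPM in Lsm1_KD and 153 and 179 CPM in Ctrl, nearly all from Odf2 (0.39, adjusted p = 0.268). Of these markers 23 were at 0 in all, among them Tnp1 and the protamine genes Prm1 and Prm3. The protamine gene Prm2 was not, at 6.04 and 9.1 CPM in Lsm1_KD and 2.15 and 1.89 CPM in Ctrl. The 34 blood and immune markers summed to 102 and 75.4 CPM in Lsm1_KD and 124 and 106 CPM in Ctrl, mostly from Ms4a1 (-0.48, adjusted p = 0.259), with 17 at 0 in all. Of 7, 5 and 6 tested genes of these lists none passed in edgeR or DESeq2, and 1 higher and 1 lower sperm marker had an unadjusted p under 0.05.

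Among gene classes, the median log2 fold change was 0.54 in 406 lncRNAs (22 up, 4 down), 0.27 with the length trend out, and -0.016 in 10638 protein-coding genes (568 up, 304 down). The heptamer TAACTTA was present in the transcripts of 1400 tested genes (12.6% of those with a sequence), whose median length was 4333 nt against 2756.5 nt in the others. Their median log2 fold change was -0.081, against 0.016 in genes without it, and -0.042 against -0.044 with the length trend out. Of genes with the heptamer 5.21% were up and 2.57% down, and of genes without it 5.41% and 2.81%. A match is a description of the letters and not a site of siRNA action.

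Zygote lysate of another experiment of the study, given tagged Lsm1 mRNA (FLAG_Input) or labelled as given untagged Lsm1 mRNA (Ctrl_Input, 2 libraries each), shares no library with the knockdown but was made with another kit. There, of 14592 features tested, Lsm1 alone was up (0.00685%) and 0 were down (0%) in edgeR. It was at 9741 and 14980 CPM in FLAG_Input and 16.1 and 16.4 CPM in Ctrl_Input (log2 fold change 9.57, adjusted p = 3.6e-05). Whether Ctrl_Input zygotes held injected Lsm1 mRNA was not tested. An unadjusted p under 0.05 was reached by 575 features in either direction, and DESeq2 called 16 up and 0 down. Without FLAG_Input replicate 2 the counts were 291 up and 335 down and without FLAG_Input replicate 1 they were 49 and 9. Of the 612 features up in the knockdown, 601 were tested in the lysate, where their median was -0.058 on the log2 scale and none was called (19 at an unadjusted p under 0.05). Of the 312 that were down, 309 were tested, with a median of -0.039, and the one called was Lsm1 itself. Sec62 was at 146 and 197 CPM in FLAG_Input and 192 and 211 CPM in Ctrl_Input (log2 fold change -0.24, adjusted p = 0.936), and Scap at 349.5 and 268 CPM against 305 and 312 CPM (0.0015, adjusted p = 0.999).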

How the data were processed

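Libraries were grouped by their titles. The gene lists and the genes named were chosen with earlier results of these data known. Reads were trimmed by the authors and quantified by Salmon on RefSeq transcripts (mm10) and repeat consensus sequences, and the deposited estimated counts and TPM were not filtered or normalized further. Labels and methods differ on the trimming tool and on the library kit (ribosomal RNA removal against amplified cDNA), and no strand setting is given, so that reads of overlapping genes cannot be told apart. TPM divides by transcript length, and estimated counts do not.

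Of 37366 transcripts, 37072 were matched to genes of GRCm38.p6, and the other 294 and the repeats stood alone. Summing the estimated counts over the transcripts of a gene gave 25091 genes and repeats, which were rounded and tested by edgeR 4.0.16 (R 4.3.3) after filterByExpr, with the 4 libraries alone in the fit. Lists were described by counts and medians, with no list test. Named genes are Lsm1, in each list up to 2 passing members, by smallest adjusted p (where none passed, its most abundant member), and the 10 largest changes per direction among called features that averaged 50 counts or more in their higher group, without overlap between groups. The other members that passed were named after their values were seen. Named features without a gene match, 1 in each direction, are left out. Some other genes that the rule names or that passed are not reported here. Lists leave out ribosomal, splicing and respiratory complexes, and of 1187 symbols 1185 were matched. Floors cover counting error only. The 11 alternatives were DESeq2 size factors, no abundance filter, DESeq2 1.42.0, the replicate number as a block, its crossed form, each library left out, a length trend taken out as an offset, and limma 3.58.1 on log2(TPM + 1). The correlation of same-numbered deviations was -0.17, which with 2 libraries per group cannot show whether the numbers pair the libraries. Libraries of the immunoprecipitates were not used here.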

Additional observations from a re-analysis of the deposited data

How the results depend on the processing

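Lsm1 stayed lower and past the threshold in all 11 alternatives (-1.19 to -1.03 with single libraries left out). Leaving out single libraries gave 456 to 598 features up and 178 to 372 down, the lowest counts without Lsm1_KD replicate 2. Without an abundance filter there were 804 up and 509 down over 16703 features, the added ones having few counts, and limma on log2(TPM + 1) gave 370 and 613. Of the features called, 156 up and 93 down were called in all 11. With the replicate block there were 411 up and 188 down, and pairing the libraries the other way, a choice made after seeing the data, gave 956 and 489. The block left the lysate comparison at 1 up and 0 down. In the lysate, no abundance filter gave 2 up, DESeq2 16 up, and single libraries left out 1 to 291 up and 0 to 335 down. Among named features other than Lsm1, 30 lost their call without Lsm1_KD replicate 2, 20 without Ctrl replicate 1, 19 with the replicate block, 13 without Ctrl replicate 2, 11 on TPM, and 10 each without Lsm1_KD replicate 1 and with the length trend out. Values that changed sign were Mgst3 (-0.0057 with the length trend out), Cgas (-0.10 on TPM) and Nr5a2 (-0.29 without Lsm1_KD replicate 2 and -0.072 without Ctrl replicate 2, in a range up to 0.39 over single libraries left out, and -0.21 on TPM). The causes were not tested. With 2 libraries per group and 4636492 counts in the shallowest, changes of low genes are the least certain.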
